A study of Drosophila melanogaster with 2 samples.

Results

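The miR-29 seed family of the fly is the group of microRNAs whose bases 2 to 8, the seed that pairs with messenger RNA, equal those of the vertebrate miR-29 miRNAs. The members described here were chosen by name, as every listed product of the hairpins mir-285, mir-995 and mir-998, which gave 6 mature products (dme-miR-285-3p, dme-miR-285-5p, dme-miR-995-3p, dme-miR-995-5p, dme-miR-998-3p and dme-miR-998-5p, written below without the species prefix) of 240 known mature sequences listed in either library. Only the 3p products carry the family seed, and the 5p products are counted as members because they are the partner strands. The libraries were made from small RNA of 18 to 30 nt from heads of Canton-S females of Drosophila melanogaster, 3 to 5 days old, with about 180 flies pooled per library. The control library came from flies kept in an air stream without ethanol for 45 minutes. The ethanol library came from flies sedated by 15 minutes of ethanol vapour and then given air for 30 minutes. There is 1 library per group, so no replicate check exists and no p-value was computed, and library and treatment cannot be told apart.

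A miRNA hairpin is cut into a duplex of a 5p and a 3p strand, and as a rule one strand is kept in an Argonaute protein while the other is degraded. The kept strand finds its targets mainly through the seed, so miRNAs with the same seed can share targets even where the rest of their sequence differs. In flies, miR-285 is known to act on Mask and Yorkie in the glia of the blood-brain barrier. mir-998 and mir-11 are known to be made from the gene of the cell cycle factor E2f1, where miR-998 lowers the EGF receptor regulator Cbl and miR-11 lowers cell death genes. Heads hold brain, eye, muscle and fat tissue together, so fewer cells of a type and less of a miRNA per cell cannot be told apart in these samples.

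The mature sequences of the 3p products, as deposited with the counts and with T for U, are printed to show the shared seed and how far the later bases differ; capitals mark bases 2 to 8.

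miR-285-3p: tAGCACCAttcgaaatcagtgc

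miR-995-3p: tAGCACCAcatgattcggctt

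miR-998-3p: tAGCACCAtgagattcagctc

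The 5p products are shown with the same capitals because their seeds differ from the family seed and from each other.

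miR-285-5p: aCTGAGATcgattggtgcataga

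miR-995-5p: cCCGAATTatgtgggagctgcg

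miR-998-5p: aCTGAATTctcgtgggtctgca

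No other product in the 2 libraries, candidate miRNAs included, held the seed AGCACCA at bases 2 to 8 (3 of 340 names), and none held these 7 letters at any other place. The seed's complement, the letters TGGTGCT, is what a target would show opposite it. Beyond base 8 the 3p products parted: miR-995-3p and miR-998-3p had the same base at 8 of 13 later positions, miR-285-3p and miR-998-3p at 4, and miR-285-3p and miR-995-3p at 3. Over their first 21 bases the closest members, miR-995-3p and miR-998-3p, differed at 5 positions. The sources used here do not say how many mismatches the authors' counting allowed. None of the 5p seeds was shared with any other listed product, so each 5p product stood alone by seed in these libraries.

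In the Ensembl annotation of the BDGP6 assembly, a later build than the authors' BDGP5, mir-285 lies on chromosome arm 3L between the genes CG5883 and CG7252. mir-995 lies on arm 3R in intron 1 of Cdk2, the gene of the kinase that works with cyclin E at the start of DNA replication, on the same strand and in an intron in all 3 annotated transcripts. mir-998 lies on arm 3R in an intron of E2f1, on the same strand and in the same intron as mir-11, with 475 bases between the hairpins; all 6 annotated E2f1 transcripts have that intron. The coordinates themselves are not printed because the builds differ.

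The control library held 13692046 reads of known miRNAs and the ethanol library 13128478, out of 17337082 and 17600983 deposited total reads, and the labels give RNA integrity numbers of 6.80 and 6.40. Levels below are CPM, the reads of a product scaled to the same total of known miRNA reads in each library. Ratios are ethanol over control, and 95% intervals are exact and cover counting error only. The neuronal miRNA miR-124-3p, at 8113 and 4205 CPM in control and ethanol, and the muscle miRNA miR-1-3p were abundant. The eye and sense organ miRNAs were listed at lower levels, miR-7-5p at 652 and 748 CPM and miR-263b-5p at 103 and 108. The gut miRNA miR-281-2-5p was listed at 120 and 127 CPM, and the other muscle miRNA, miR-133-3p, at 1044 and 858. The early embryo and gonad markers each had at most 90 reads, and 2 of them, miR-309-3p and miR-313-3p, were listed in neither library. How far these marker levels bear on the family's ratios was not tested.

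By reads, the 6 products fell into 4 that were abundant, between 2326 and 3883 CPM in both libraries, and 2 that were far rarer. miR-998-5p was the most abundant in the control, with 53162 reads (3883 CPM), and had 41917 reads (3193 CPM) in the ethanol library. miR-285-3p had 38788 reads (2833 CPM) in the control and 47876 reads (3647 CPM) in the ethanol library, where it was the most abundant of the 6. miR-285-5p had 34709 reads (2535 CPM) and 30540 reads (2326 CPM). miR-995-3p stood next to it, with 34020 reads (2485 CPM) in the control and 35583 reads (2710 CPM) in the ethanol library. These products ranked between place 19 and place 28 among all known miRNAs of their library. The rare members were the minor strands of their hairpins. miR-998-3p had 1870 and 1794 reads (137 CPM in each library), and miR-995-5p had 246 and 142 reads (18.0 and 10.8 CPM).

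The order of the members was not the same in the 2 libraries. From high to low the abundant products ran miR-998-5p, miR-285-3p, miR-285-5p, miR-995-3p in the control. In the ethanol flies they ran miR-285-3p, miR-998-5p, miR-995-3p, miR-285-5p, so 2 pairs of neighbours had changed places. The closest neighbours were miR-285-5p and miR-995-3p in the control, with 1.02 reads of the first per read of the second (1.005 to 1.04). The next closest were miR-285-3p and miR-285-5p in the control, with 1.12 reads to 1 (1.10 to 1.13). The counting intervals separate these levels only if each read is an independent draw, and PCR copies were not told apart. The spread between libraries of one treatment was not measured either, so differences of this size have no replicate support.

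**Figure D1:**
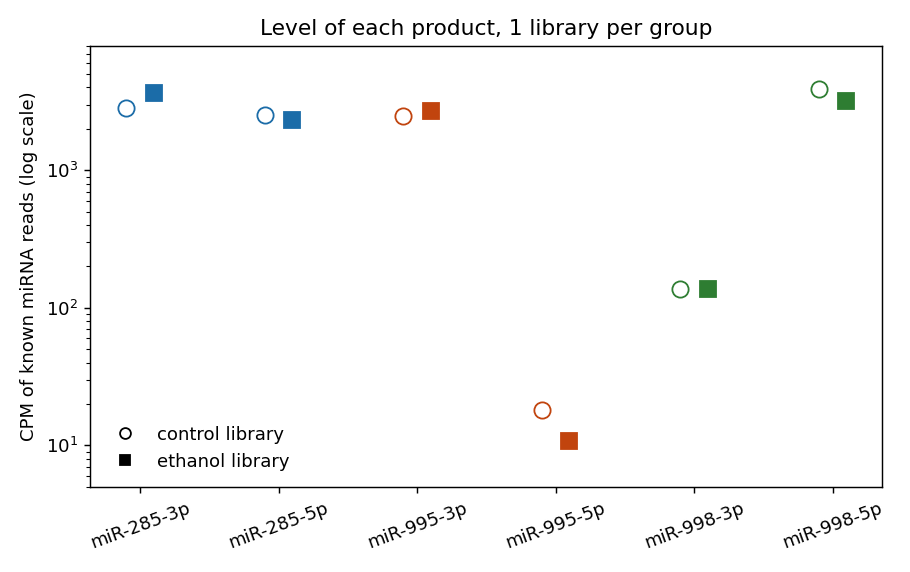
CPM of known miRNA reads (log scale) for each product in the control library (open circles) and the ethanol library (filled squares), 1 library each. miR-998-5p, miR-285-3p, miR-285-5p and miR-995-3p lie between 2326 and 3883 CPM, and miR-998-3p at 137 and miR-995-5p at 10.8 to 18.0 CPM lie far below.

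The share of reads from each strand differed sharply within the family, although every 3p product begins with the same 8 bases. mir-995 gave nearly only 3p reads: 99.3% in the control library (99.2 to 99.4%) and 99.6% in the ethanol library (99.5 to 99.7%). mir-285 gave both arms in like amounts, with 52.8% of its reads from 3p in the control library (52.4 to 53.1%) and 61.1% in the ethanol library (60.7 to 61.4%). mir-998 gave mostly 5p reads, and its 3p product, the one with the family seed, made up 3.40% of its reads in the control library (3.25 to 3.55%) and 4.10% in the ethanol library (3.92 to 4.29%). In other words, 28.4 reads of miR-998-5p were counted per read of miR-998-3p in the control library and 23.4 in the ethanol library.

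**Figure D2:**
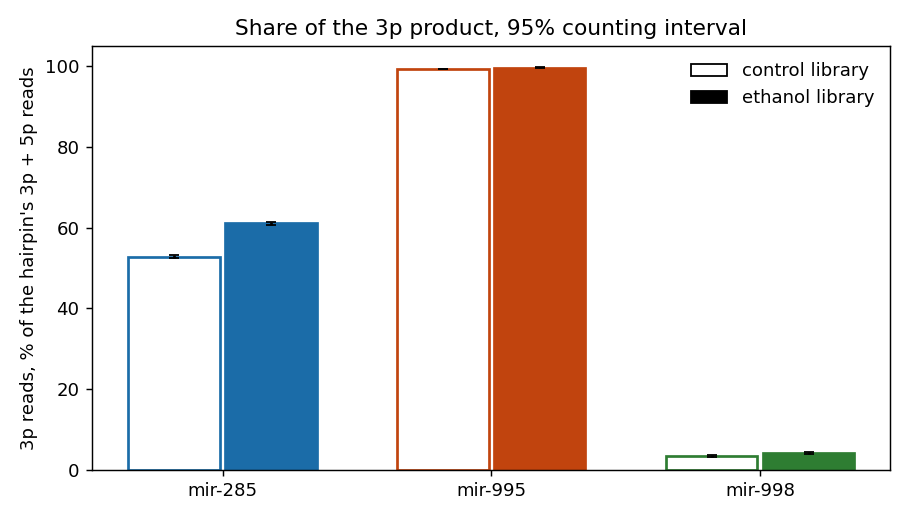
Share of 3p reads among the 3p and 5p reads of each hairpin, in percent, for the control (open bars) and ethanol library (filled bars), with exact 95% counting intervals. mir-995 stands above 99%, mir-285 at 52.8% and 61.1%, and mir-998 at 3.40% and 4.10%.

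Among the 61 hairpins with both arms compared, those with at least 100 reads per product over both libraries, mir-285 was one of the most even. Its 3p share was the third closest to 50% in the control and the seventh closest in the ethanol library. mir-995 was one of 6 hairpins with over 99% 3p reads in both libraries, and mir-998 one of 13 with under 5%. The first base of the strand was compared because fly Argonaute1 is known to prefer strands that begin with U. Of 36 hairpins in which 1 arm alone begins with T in the deposited sequence (U in the RNA), that arm was the more abundant in 30 in each library. mir-285 and mir-995 were among the 30, and mir-998 was one of the 6 that were not. These counts are descriptions of 2 libraries, and the comparison was chosen after the arm shares were seen.

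Pairing of the listed 5p and 3p sequences, computed with RNAduplex, gave 15 base pairs and -24.0 kcal/mol for mir-285, 17 base pairs and -25.5 kcal/mol for mir-995, and 16 base pairs and -20.2 kcal/mol for mir-998. In each duplex 6 of the 7 seed bases of the 3p strand were paired. The family seed was thus paired to the same extent in the 3 computed duplexes, of which that of mir-998 was the least stable. The whole hairpins were not folded. Of the 5p seed bases, 5 were paired in mir-285, 7 in mir-995 and 6 in mir-998. In the same order, 0, 1 and 1 first bases of the 5p strand were unpaired, and 2, 0 and 2 of the 3p strand. The part of pairing in the arm shares was not tested.

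The comparison of the ethanol with the control library asked whether these levels differ after a sedating exposure. No member reached a 2-fold difference, the threshold used for calling a product different, which 6 of the 168 compared products did (3.57%; 4 higher and 2 lower, which was 4 and 4 when RPM over the deposited total was used and 4 and 5 without the 4 most abundant products in the total). The authors' deposited table marks none of the 6, among the 14 it marks of 196 products. It compares RPM over another set of products and holds p-values from an unnamed test, so its marks need not match the 2-fold call used here. In CPM the 3p products were at or above a ratio of 1 and the 5p products below it. For miR-998-3p, at 1.001, this side depends on the scaling. Its ratio was 0.995 with TMM factors, 0.991 with DESeq2 size factors and 0.945 with RPM over the deposited total, each with an interval that holds 1. Counting intervals lay above 1 for 2 members (over all compared products, 36.9%) and below 1 for 3 (38.1%), so the members' counts on each side are near the background.

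miR-285-3p was 1.29-fold higher in the ethanol library (1.27 to 1.305), a log2 ratio of 0.36 at percentile 76.2 of the compared products. miR-995-3p was 1.09-fold higher (1.07 to 1.11), a log2 ratio of 0.13 at percentile 61.3. With the 4 most abundant products left out of the total its ratio was 1.002 (0.987 to 1.02), an interval that holds 1. For miR-998-3p no difference was detectable at this depth in CPM, with a ratio of 1.001 (0.937 to 1.07), but without the same 4 products in the total the ratio was 0.919 (0.861 to 0.981), an interval below 1. Summed over the family, reads with the seed went from 74678 to 85253, or from 0.545% to 0.649% of the known miRNA total, a ratio of 1.19 (1.18 to 1.20). miR-285-3p and miR-995-3p together carry that sum, since miR-998-3p is 2.50% of it in the control library and 2.10% in the ethanol library.

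The 5p products all had lower CPM in the ethanol library. miR-998-5p was 1.22-fold lower (1.20 to 1.23), a log2 ratio of -0.28 at percentile 25.6. miR-285-5p was 1.09-fold lower (1.07 to 1.11), at percentile 40.5. miR-995-5p was 1.66-fold lower (1.35 to 2.06), at percentile 5.36, the farthest from 1 among the members and the one resting on the fewest reads. The median log2 ratio was 0.13 for the 3 members from 3p arms and -0.28 for the 3 from 5p arms, beside 0.11 for all 85 compared 3p products and -0.12 for all 83 compared 5p products. With 3p and 5p products added up, the 6 members made up 1.19% of the control library's known miRNA reads and 1.20% of the ethanol library's, a ratio of 1.01 (1.004 to 1.02).

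**Figure D3:**
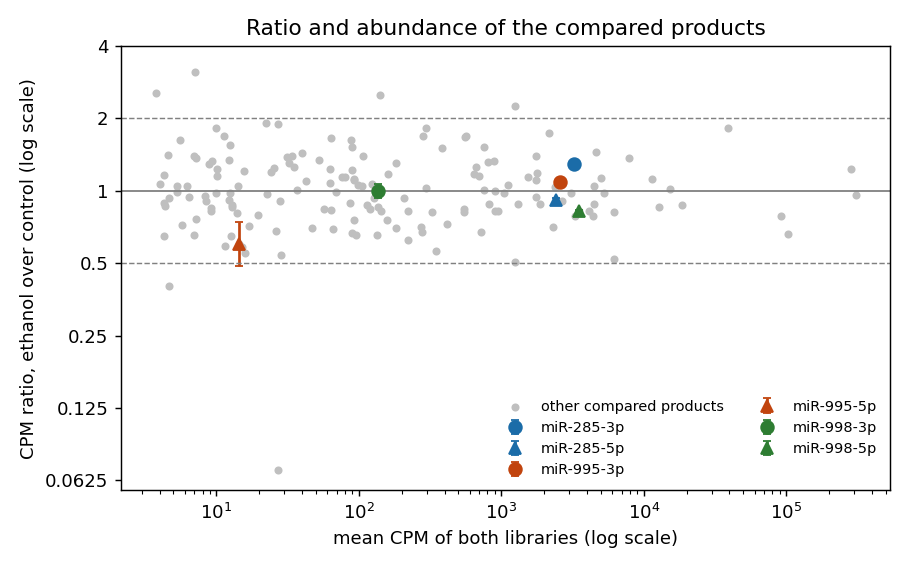
CPM ratio, ethanol over control (log scale), against mean CPM (log scale) for the 168 compared products, with members in colour (circles 3p, triangles 5p) and 95% counting intervals. The dashed lines mark 2-fold; all 6 members lie between them, from 0.602 for miR-995-5p to 1.29 for miR-285-3p.

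Ratios between members do not depend on how the libraries are scaled. miR-285-3p was higher relative to miR-995-3p in the ethanol library: 1.14 reads of it were counted per read of miR-995-3p in the control library and 1.35 in the ethanol library, an odds fold of 1.18 (1.16 to 1.20). Against miR-998-3p it went from 20.7 to 26.7 reads per read, an odds fold of 1.29 (1.20 to 1.38). miR-998-3p against miR-995-3p was 1.09-fold lower (1.02 to 1.17). Within the reads that carry the family seed, miR-285-3p therefore made up 51.9% in the control library (51.6 to 52.3%) and 56.2% in the ethanol library (55.8 to 56.5%). miR-995-3p made up 45.6% (45.2 to 45.9%) and 41.7% (41.4 to 42.1%). The counted reads with the seed were thus from mir-285 and mir-995 in nearly equal parts in the control library, with more from mir-285 in the ethanol library. How evenly different sequences were captured in the libraries was not measured, so these shares describe reads and not the pool in the heads.

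All 3 hairpins had relatively more 3p reads in the ethanol library. The 3p over 5p ratio was 1.40-fold higher for mir-285 (1.37 to 1.43), from 1.12 to 1.57 reads of 3p per read of 5p. For mir-995 it was 1.81-fold higher (1.47 to 2.24), from 138 to 251 reads. For mir-998 it was 1.22-fold higher (1.14 to 1.30). The counting interval lay above 1 for 3 of 3 hairpins, beside 25 of 61 hairpins in all (41.0%) above 1 and 17 (27.9%) below, and the median log2 odds fold was 0.49 for the 3 and 0.11 for the 61. No member hairpin reached a 2-fold change of the arm ratio, as 18.0% of all hairpins did. In CPM, mir-285 was one of 14 hairpins whose 3p interval lay above 1 and whose 5p interval lay below it, and mir-995 was another. Unlike the odds folds, this depends on the scaling. Without the 4 most abundant products in the total, the interval of miR-995-3p held 1.

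**Figure D4:**
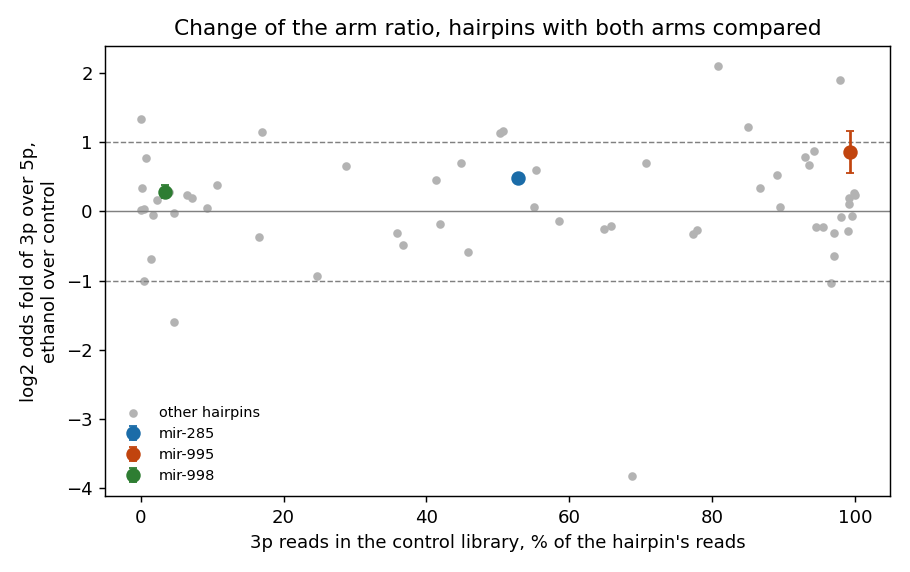
Log2 odds fold of 3p over 5p reads, ethanol over control, against the 3p share in the control library for the 61 hairpins; member hairpins in colour with 95% counting intervals, dashed lines at 2-fold. mir-998, mir-285 and mir-995 lie at 0.28, 0.49 and 0.86, all above 0, at 3.40%, 52.8% and 99.3% 3p reads.

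Guanine content moved with these differences. Over the 168 compared products, the log2 ratio had Spearman's rho of -0.50 and Pearson's r of -0.38 with the guanine share of the mature sequence, across products that share the same 2 libraries. The 3p members held 18.2% to 19.05% guanine, and the 5p members 27.3% (miR-998-5p), 30.4% (miR-285-5p) and 36.4% (miR-995-5p). With a straight line on guanine share taken off, each 3p over 5p odds fold was smaller than before. The values were 1.16 for mir-285, 1.38 for mir-995 and 1.07 for mir-998. No interval was computed for these values, so whether that of mir-998 differs from 1 beyond counting error was not tested. The log2 ratio of miR-285-5p changed sign, from -0.12 to 0.05, and that of miR-998-3p went from 0.00078 to -0.09. The 3p members have nearly the same guanine share, and the odds fold of miR-285-3p over miR-995-3p was 1.16 with the line taken off, beside 1.18 without it. The part of base composition in these differences was not tested.

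**Figure D5:**
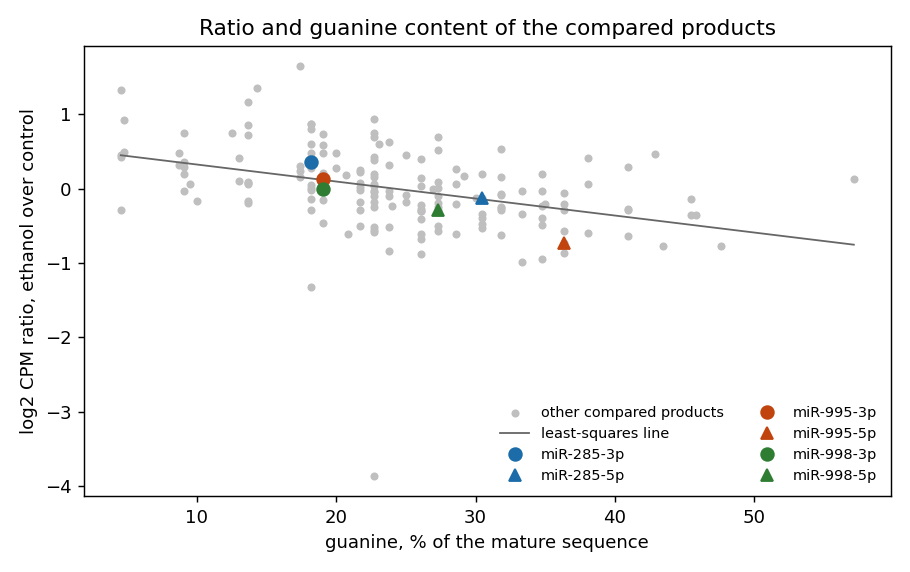
Log2 CPM ratio, ethanol over control, against the guanine share of the mature sequence in percent for the 168 compared products, with the least-squares line and members in colour (circles 3p, triangles 5p). The 3p members cluster at 18.2% to 19.05% guanine with log2 ratios of 0.00078 to 0.36, and the 5p members lie at 27.3% to 36.4% with log2 ratios of -0.73 to -0.12.

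mir-998 and mir-11 lie in the same E2f1 intron, but their products had different levels and ratios. miR-11-3p, which lowers cell death genes and has the K-box seed, had 4231 reads (309 CPM) in the control and 6089 reads (464 CPM) in the ethanol library. miR-11-5p had 91 and 35 reads, a ratio of 0.401 (0.264 to 0.598), and was one of the 6 products past 2-fold. Of the reads from both hairpins, miR-998-5p made up 89.6% in the control library (89.3 to 89.8%) and 84.1% in the ethanol library (83.8 to 84.4%), and miR-11-3p 7.13% (6.92 to 7.34%) and 12.2% (11.9 to 12.5%). The main strand of mir-998 thus had 12.6 times the reads of that of mir-11 in the control and 6.88 times in the ethanol library. The ratio of reads was 1.83-fold lower in the ethanol library (1.75 to 1.90). Among the 3p products, miR-998-3p over miR-11-3p had an odds fold of 0.667, ethanol over control (0.618 to 0.720). Against miR-11-5p the odds folds went the other way, 2.05 (1.37 to 3.12) for miR-998-5p and 2.49 (1.66 to 3.82) for miR-998-3p. Summed by hairpin, mir-998 had a ratio of 0.828 (0.818 to 0.839) and mir-11 of 1.48 (1.42 to 1.54), on opposite sides of 1. Both arms of mir-11 hold little guanine (19.05% and 18.2%), and with the guanine line taken off miR-998-5p over miR-11-3p was at 0.624, beside 0.548 without it.

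Seed families as a whole gave a frame for the spread among members. Of 15 seeds shared by at least 2 compared sequences, the family of mir-285, mir-995 and mir-998 was the fourth in summed mean CPM, at 5974. Its members' log2 ratios spanned 0.36, rank 8 of the 15 families from the narrowest, so the median span is the family's own. A span can only grow as members are added, and the families differ in their number of members. miR-285-3p held 54.2% of its CPM, and the 3 families nearest to it in CPM are set beside it. The pair miR-10-3p and miR-1006-3p had 99.5% in the first and log2 ratios from -0.30 to 0.48. The pair miR-31a-5p and miR-31b-5p had 97.9% in the first and log2 ratios from -0.20 to -0.03. The third of these, miR-279-3p and miR-996-3p, was close to even (56.5%), with log2 ratios from -0.03 to 0.05. The highest of the 3 in summed mean CPM was miR-10-3p with miR-1006-3p, at 6211, and the lowest was miR-31a-5p with miR-31b-5p, at 5381.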

How the data were processed

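Reads were counted per mature miRNA by the authors and deposited as one table of counts per library, with build BDGP5 per the submitters' processing notes; the sources used here do not name the aligner, counting tool, trimming or miRNA database. The deposited RPM values equal the count over a deposited total read number, per the file headers and values. The authors' deposited comparison table holds log2 ratios of RPM and p-values from an unnamed test; the p-values compare 2 libraries and are not printed. Tables list products from 5 reads up. For names listed more than once (6 per library) the largest count was used, and identical sequences were used once.

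CPM was computed over all known miRNA reads, and the 168 products whose reads in the 2 libraries summed to 100 or more were compared. Ratios and shares carry exact 95% intervals (conditional binomial, Clopper-Pearson, and conditional odds ratio); since PCR copies were not told apart by molecular identifiers, they cover counting error only. A product was called different at 2-fold (ratio from 2 up or from 0.5 down). The guanine line is the least-squares line of log2 ratio on guanine percent over the compared products, centred on their median. Named products were all products of the hairpins, miR-11, neighbours in CPM and in log2 ratio, and the 3 seed families nearest in CPM. The members, lists and the guanine comparison were chosen with earlier results of these data known. Interval code was tested on simulated data. Tools were Python 3.11.15, pandas 2.3.3, SciPy 1.17.1, ViennaRNA 2.7.2 and R 4.3.3 with edgeR 4.0.16 and DESeq2 1.42.0, both used for scaling factors alone.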

Additional observations from a re-analysis of the deposited data

How the results depend on the processing

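Scaling by edgeR's TMM or DESeq2's size factors left every member's ratio within the counting interval given above. With RPM over the deposited total, the ratios were 1.22 (miR-285-3p), 1.03 (miR-995-3p), 0.777 (miR-998-5p) and 1.12 (summed 3p products), and 0.945 for miR-998-3p (0.885 to 1.01). Without the 4 most abundant products in the total, which moved the median log2 ratio of all compared products by -0.12, they were 1.18, 1.002, 0.756 and 1.09, and 0.919 for miR-998-3p (0.861 to 0.981). With the guanine line taken off they were 1.19, 1.03, 0.881 and 1.11, and the 3p over 5p odds fold of mir-998 was 1.07. With 5p products added to the total, the share of miR-285-3p was 6.50 percentage points higher in the ethanol library (4.22 within the 3p products), that of miR-998-3p changed by -0.012 points (-0.40), and that of miR-995-3p changed by 1.64 points (-3.82), a reversal made by the 5p reads in the total. The count of products at least 2-fold different, 6 as given, was 12 with a minimum of 10 reads or with none, as more low-count products enter, and 2 with a minimum of 1000 reads; no member is among them under any scaling. The other alternatives gave 6 to 9. No paired analysis was possible because each group has 1 library. For the same reason no library could be left out.

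At 246 and 142 reads, miR-995-5p has the widest interval of the members. Counting error is small for the others, and variation between libraries of one treatment was not measured.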

Other observations

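Products at the same abundance as the members had ratios on both sides of 1. miR-14-5p and miR-279-3p, the neighbours of miR-285-3p in mean CPM, had ratios of 0.785 (0.774 to 0.795) and 0.979 (0.966 to 0.993), beside 1.29 for miR-285-3p. The ratio of miR-970-3p, next above miR-995-3p, was 0.904 (0.891 to 0.918). That of miR-996-3p, next below miR-285-5p, was 1.04 (1.02 to 1.05). miR-14-3p, the growth and survival miRNA next above miR-998-5p, had 61994 and 48938 reads and a ratio of 0.823 (0.814 to 0.833), beside 0.822 for miR-998-5p. The neighbours of miR-998-3p were miR-1003-3p, a mirtron product with a ratio of 2.50 (2.33 to 2.68), and miR-2c-5p with 0.854 (0.800 to 0.912). miR-995-5p stood between miR-1003-5p at 0.585 (0.475 to 0.719) and miR-184-5p at 1.04 (0.848 to 1.28).

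The products nearest to the 3p members in log2 ratio over the 2 libraries were miR-9c-3p and miR-92a-3p for miR-285-3p (differences of 0.0018 and 0.020), miR-966-5p and miR-1012-3p for miR-995-3p (0.011 and 0.016), and miR-284-5p and miR-193-5p for miR-998-3p (0.0038 and 0.0062). With 2 libraries, likeness in 1 ratio is a weak measure.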
